A study of Mus musculus with 8 samples.

Results

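The macrophage and myeloid genes described here were 46 genes chosen by symbol, out of 18533 gene symbols with a value in the count files, as genes of the myeloid lineage, phagocyte receptors, subunits of the phagocyte NADPH oxidase, or leukocyte integrins. All 46 were found. They were measured by RNA-Seq in MASMCs, that is, smooth muscle cells in primary culture from the aorta, of WT mice (n = 4) and of *Hint1*-/- mice (n = 4), a knockout line of the nucleotide hydrolase *Hint1* that is not limited to smooth muscle. All 8 samples received PDGF-BB, a growth factor that drives smooth muscle cells from the contractile to the synthetic state, at 20 ng/mL for 24 hours. The cells came from male mice aged 4 to 6 weeks, from pieces of aorta that had been freed of adventitia and endothelium and were then digested with collagenase. No sorting step was described, no sample without PDGF-BB was included, and the sources did not state whether replicates were separate mice or separate dishes. The p-values therefore measure the spread between these samples, which may be technical.

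Macrophages depend on the lineage factor PU.1, encoded by *Spi1*, and on the receptor *Csf1r*, which binds the ligands CSF1 and IL-34. They take up particles through Fc and scavenger receptors, kill with an NADPH oxidase assembled from membrane and cytosolic subunits, digest in lysosomes, and adhere through β2 integrins. In the aortic wall, resident macrophages lie mainly in the adventitia, and smooth muscle cells that lose the contractile state can take up some genes first described in macrophages, *Lgals3* and *Cd68* among them.

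The depth was between 20778077 and 20888041 estimated counts in each library. Genes were compared with edgeR's quasi-likelihood test, and p-values were adjusted by Benjamini-Hochberg across the 13535 genes past a filter on low counts. Below, a gene "fell" or "rose" where its adjusted p was under 0.05, and it was past the fold limit where its fitted fold change was also over 1.5. Fold changes compare *Hint1*-/- with WT on the log2 scale, and levels are CPM, counts scaled to the size of the library, with the SD over 4 samples. *Hint1* itself had 2272, 2336, 2364, and 2301 counts in WT samples and 713, 748, 778, and 715 in *Hint1*-/- samples (log2 fold change −1.64, edgeR adjusted p = 6.77e-16). Its counts were far lower in each *Hint1*-/- sample, but 32.1% of the WT level remained, so the transcript was reduced and not absent. Counts per gene do not show which exons the remaining reads cover.

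The myeloid genes were lower in *Hint1*-/- MASMCs as a broad, shallow shift. In bulk RNA, fewer cells of a type and less RNA per cell cannot be told apart. Of the 46 genes, 41 passed the filter and were tested. Among those 41, 25 fell, 1 rose, and 15 were not past the threshold. Over all tested genes, 10.2% fell and 11.2% rose. The 25 genes that fell retained 71.1% to 88.3% of the WT level, and none of them was past the fold limit, which 1.49% of all tested genes passed downward. The single gene past both thresholds was *Clec7a*, which rose. Of all tested genes, 2.83% were past both thresholds, and 1.34% were past both upward. The median log2 fold change of the 41 genes was −0.29, beside 0.000306 over all tested genes, and the median of the genes tested under each alternative setting, between 39 and 46 of them, lay between −0.32 and −0.24. In 24 of the 41 genes the *Hint1*-/- samples were all below the WT samples, a pattern seen in 11.1% of all tested genes.

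**Figure D1:**
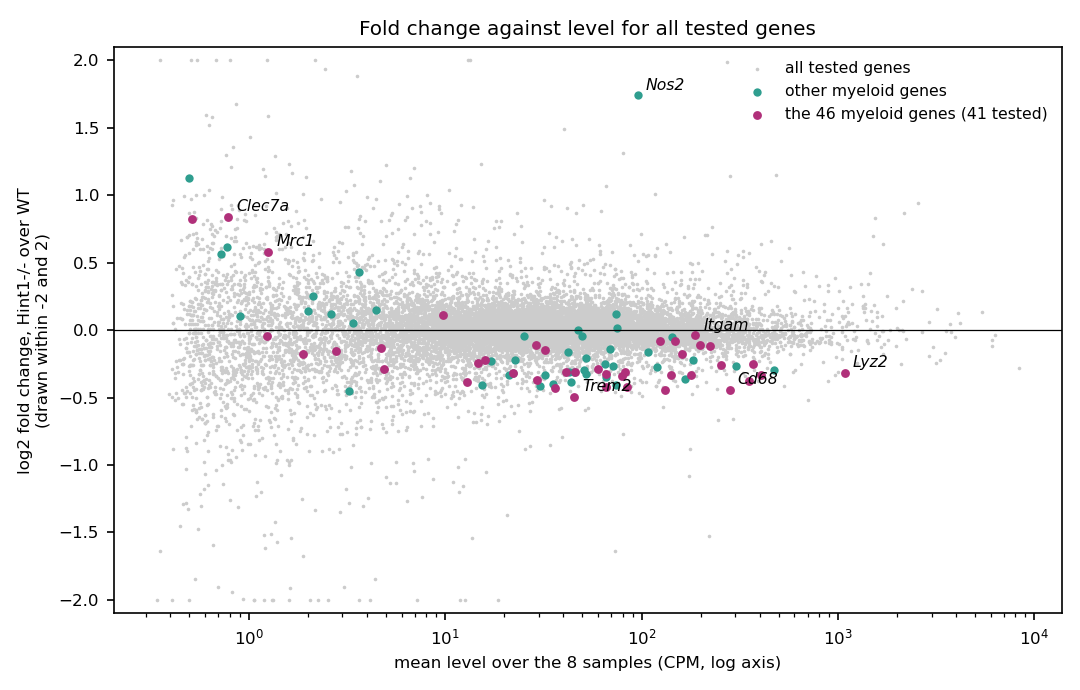
Log2 fold change of *Hint1*-/- over WT (vertical, drawn within −2 and 2) against the mean level over the 8 samples in CPM (horizontal, log axis), with 1 point per tested gene. The 41 tested myeloid genes in purple lie mostly below 0 along the whole range above about 10 CPM, while *Clec7a*, *Mrc1*, and *Marco* lie above 0 at the low end of the axis.

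The summed level of the 46 genes was 5228, 5649.8, 5407, and 5804 CPM in WT replicates 1, 2, 3, and 4, and 4365, 4744, 4635, and 4429 CPM in *Hint1*-/- replicates 1, 2, 3, and 4. Each *Hint1*-/- sample was below the lowest WT sample. On average this was 5522 ± 255 CPM for WT and 4543 ± 177 CPM for *Hint1*-/- (SD, n = 4 each), so that *Hint1*-/- samples held 82.3% of the WT level. *Lyz2* alone supplied 21.5% of these counts, and without it the share was 82.8%. For the 9 genes taken as defining markers of macrophages (*Ptprc*, *Csf1r*, *Adgre1*, *Spi1*, *Itgam*, *Lyz2*, *Cd68*, *Tyrobp*, and *Fcer1g*), the share was 79.6%, and 8 of the 9 fell. None of these 9 genes was near 0 in any sample.

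**Figure D2:**
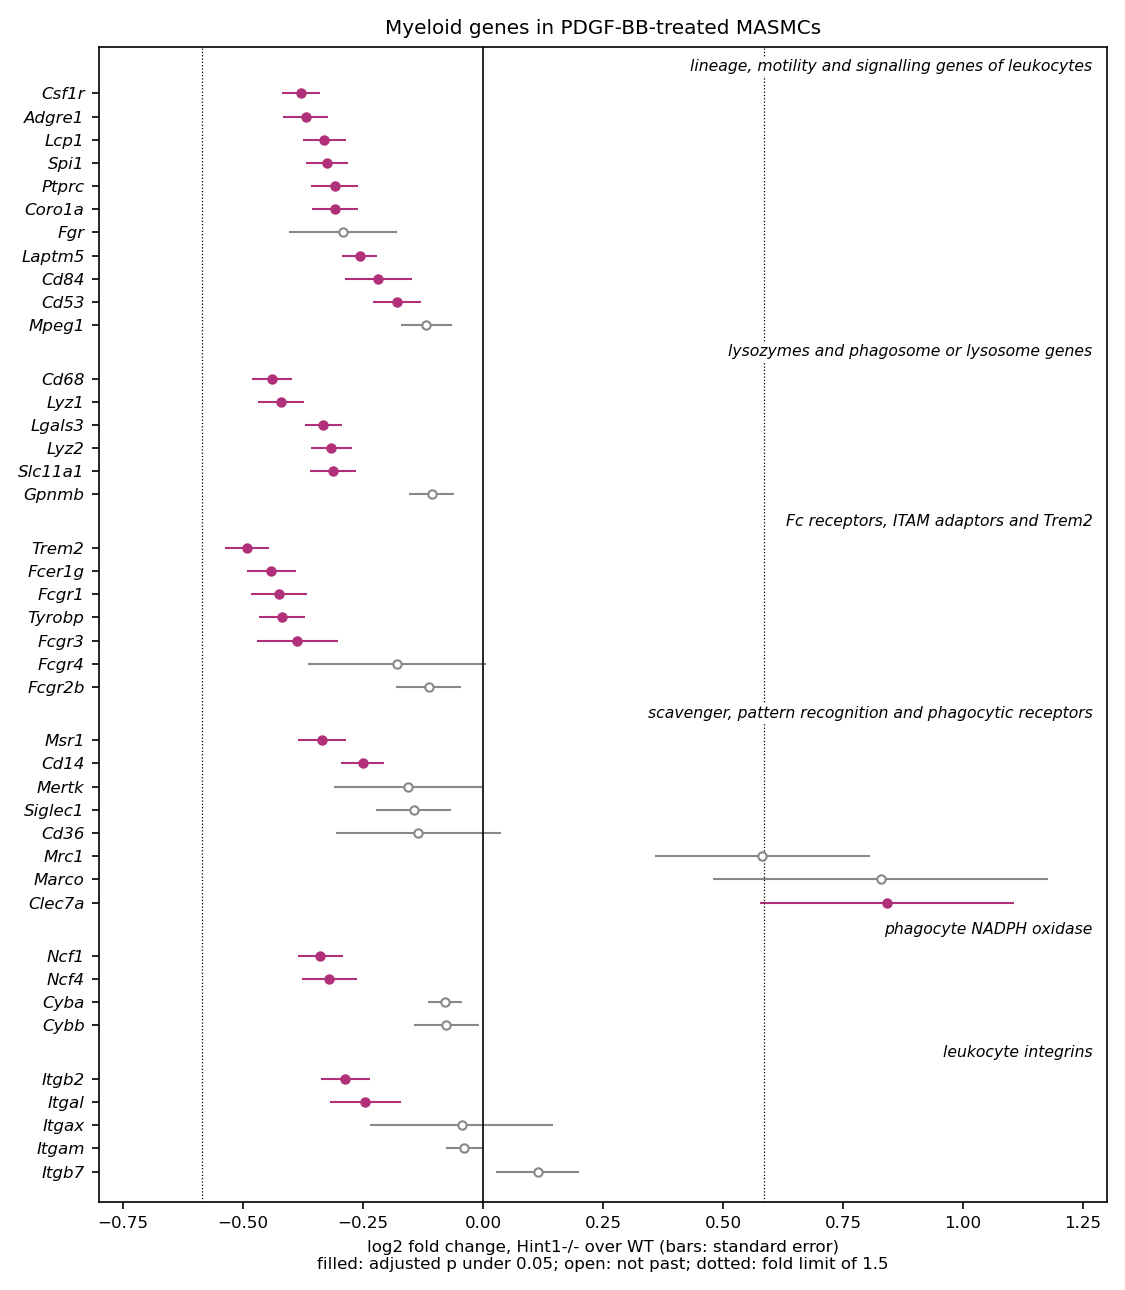
Log2 fold change of *Hint1*-/- over WT for the 41 tested myeloid genes (horizontal, bars are the standard error), grouped by role; filled points have an adjusted p under 0.05 and dotted lines mark the fold limit of 1.5. The points that fell lie between −0.49 and −0.18, and *Clec7a* is the only filled point above 0.

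All 25 genes that fell averaged 100 counts or more. Of the 34 tested genes that averaged 100 counts or more, 33 had a negative log2 fold change, with a median of −0.31 beside 0.00 for the 10996 tested genes of that abundance. Of the 7 tested genes under 100 counts, none fell and 1 rose, with a median of −0.04 beside −0.03 for 2539 genes. The log2 fold changes of these 7 genes had standard errors of 0.155 or more, and detection at such counts was not tested.

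Several of these genes were among the most abundant transcripts of the cultures. Scaled per kilobase of annotated exons, so that genes can be compared, *Lyz2* stood at 914 CPM per kb in WT samples, rank 22 among the 17733 genes whose length was known. *Cd68* stood at 257 CPM per kb (rank 154), *Cd14* at 233 (rank 166), *Fcer1g* at 173 (rank 237), and *Cyba* at 147 (rank 273). The median over the 46 genes was 12.3 CPM per kb in WT and 9.86 in *Hint1*-/- samples. For comparison, *Acta2*, the actin of contractile smooth muscle, stood at 376 CPM per kb in WT samples. At the other end, *Cd163* and *Lyve1*, markers of resident macrophages of vessel walls, stood at 0.0232 and 0.0205 CPM per kb. The scale depends on the gene model, most of all for *Ptprc*, at 2.78 CPM per kb of all annotated exons and 8.87 per kb of its longest transcript.

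**Figure D3:**
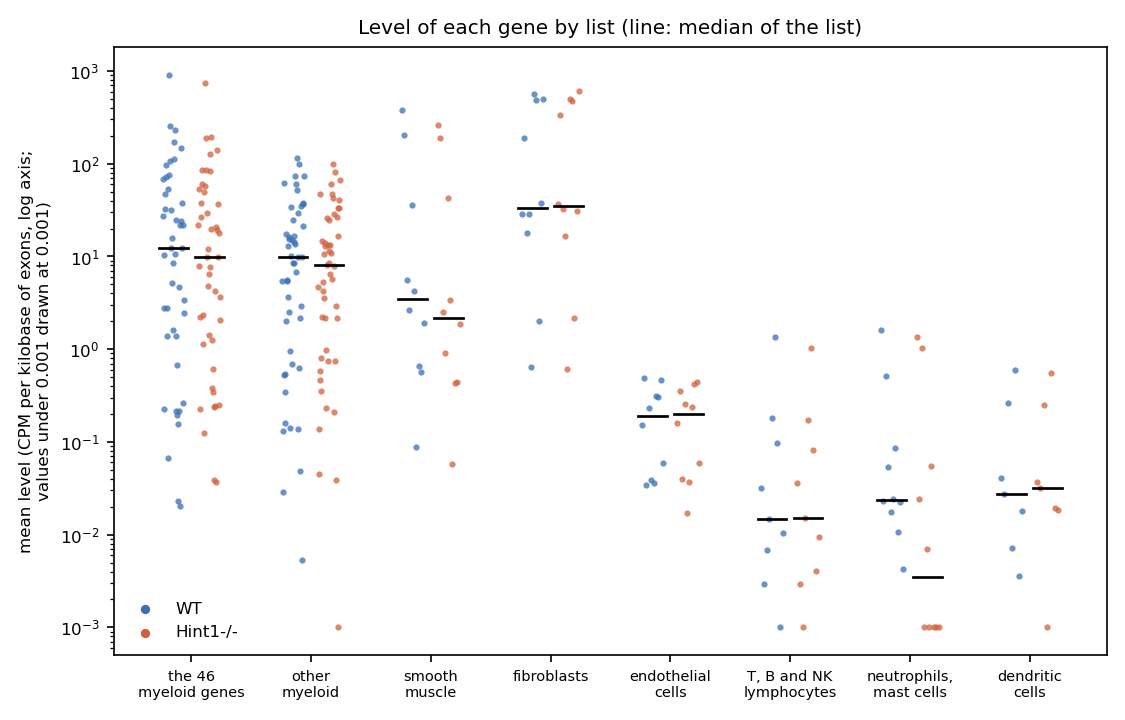
Mean level of each gene in CPM per kilobase of exons (vertical, log axis, with values under 0.001 drawn at 0.001) for the 46 myeloid genes and 7 other lists, in WT and *Hint1*-/- samples, with a line at each list's median. The myeloid genes spread from 0.0205 to 914 CPM per kb in WT samples, and their median of 12.3 lies between those of smooth muscle genes (3.47) and fibroblast genes (33.3) and far above that of endothelial genes (0.192).

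Genes of lineage, motility, and leukocyte signalling numbered 13, of which 11 were tested, 9 fell, none rose, and 2 (*Fgr* and *Mpeg1*) were not past the threshold, with a median log2 fold change of −0.31. *Csf1r*, the receptor that macrophages need for survival, had 7863, 8105, 8302, and 8886 counts in WT samples and 6109, 6266, 6663, and 6264 in *Hint1*-/- samples. It fell by 0.38 on the log2 scale (SE 0.039, edgeR adjusted p = 9.27e-07), and the genotypes were far apart. Its exons overlap those of *Hmgxb3* on the other strand, and 14.3% of its 50-base stretches occur in other genes, most often in *Hmgxb3*. Whether counting used strand is not given in the sources used here. The estimated counts of *Csf1r* were whole in 8 of 8 samples. *Spi1*, the lineage factor PU.1, had 1469, 1509, 1531, and 1605 counts in WT samples against 1179, 1281, 1260, and 1125, and fell by 0.32 (SE 0.044, edgeR adjusted p = 2.18e-05). *Ptprc*, the CD45 phosphatase of all leukocytes, had 1004, 1162, 1067, and 1027 counts against 784, 901, 871, and 855, and fell by 0.31 (SE 0.050, edgeR adjusted p = 0.000155). In each of these genes the highest *Hint1*-/- sample was below the lowest WT sample. *Adgre1*, which encodes the macrophage antigen F4/80, had 665, 680, 710, and 721 counts against 523, 520, 530, and 559, and fell by 0.37 (SE 0.047, edgeR adjusted p = 1.17e-05). *Lcp1*, the actin-bundling plastin of blood cells, had 8709, 9598, 9354, and 10138 counts against 6915, 7823, 7681, and 7401, and fell by 0.33 (SE 0.045, edgeR adjusted p = 2.38e-05). The samples of both genes also separated fully by genotype. *Laptm5*, a lysosomal membrane protein of blood cells, had 5763, 5719, 5746, and 5804 counts against 4449, 4912, 5058, and 4709, and fell by 0.26 (SE 0.037, edgeR adjusted p = 4.54e-05). *Laptm5* varied less among its WT samples than the other genes of the group.

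*Coro1a*, a coronin that remodels actin in leukocytes, fell by 0.31 and overlaps *Bola2* on the other strand. *Cd84*, an adhesion receptor of the SLAM family, fell by 0.22, and *Cd53*, a leukocyte tetraspanin, by 0.18. *Cd84* and *Cd53* were the only 2 of the 25 genes that fell whose samples overlapped between genotypes. *Cd84* had an edgeR adjusted p of 0.0304 and was above 0.05 in 6 of 15 alternative settings. *Cd53* was above 0.05 without *Hint1*-/- replicate 1 (edgeR adjusted p = 0.0624). *Mpeg1*, a pore-forming protein of macrophages, had 4571, 5609, 4765, and 4567 counts in WT samples and 4263, 4731, 4444, and 4396 in *Hint1*-/- samples (log2 fold change −0.12, edgeR adjusted p = 0.124). Its genotypes overlapped, with WT replicate 2 standing high. *Fgr*, a Src family kinase of myeloid cells, had 449 counts over the WT samples and 364 over the *Hint1*-/- samples (log2 fold change −0.29, edgeR adjusted p = 0.0736). *Aif1*, which encodes the macrophage marker IBA1, and *Ms4a7* did not pass the filter, with 29 and 25 counts over the 4 WT libraries and 29 and 46 over the *Hint1*-/- libraries.

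**Figure D4:**
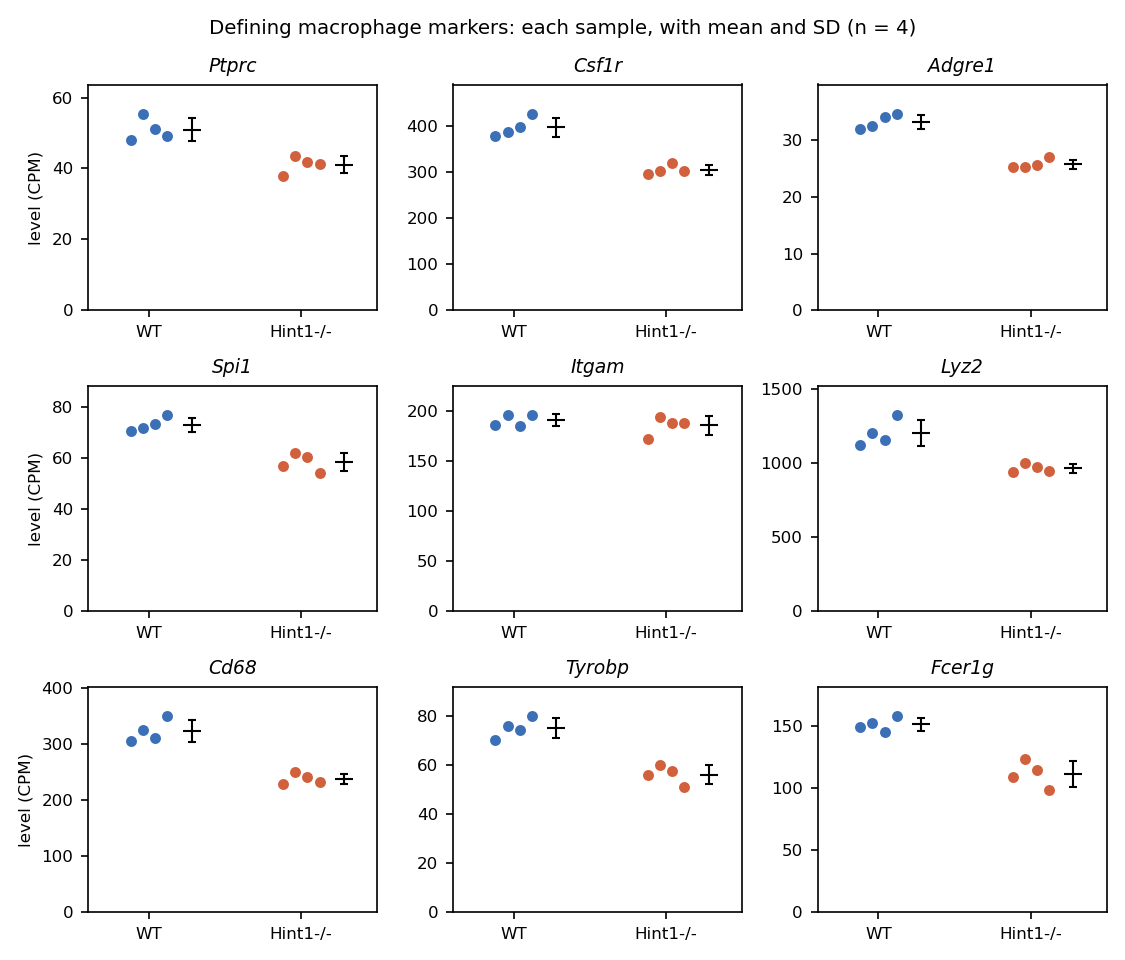
Level in CPM of the 9 defining macrophage markers in each sample (vertical axis from 0), with the mean and SD beside the 4 samples of each genotype. In 8 panels all *Hint1*-/- points lie below all WT points, and in the *Itgam* panel they overlap.

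Lysozymes and genes of the phagosome or lysosome numbered 6, all tested, and 5 fell, with a median log2 fold change of −0.32. *Lyz2*, lysozyme M, which digests bacterial walls, had 23425, 25205, 24242, and 27662 counts in WT samples and 19497, 20726, 20307, and 19601 in *Hint1*-/- samples. WT replicate 4 was the highest, and the genotypes did not overlap. That is 1202 ± 88.0 CPM for WT and 966 ± 29.0 CPM for *Hint1*-/- (SD, n = 4 each), a fall of 0.32 on the log2 scale (SE 0.043, edgeR adjusted p = 2.75e-05). *Cd68*, a lysosomal glycoprotein of macrophages, had 6378, 6826, 6515, and 7313 counts in WT samples and 4754, 5171, 5018, and 4824 in *Hint1*-/- samples. It fell by 0.44 (SE 0.042, edgeR adjusted p = 3.15e-07), with a wide gap between the genotypes. *Lgals3*, the lectin galectin-3, had 3892, 4143, 4264, and 4373 counts against 3330, 3394, 3271, and 3142, and fell by 0.33 (SE 0.038, edgeR adjusted p = 3.69e-06). *Slc11a1*, a metal transporter of the phagosome, fell by 0.31, from 3815 counts over the WT samples to 3049. *Gpnmb*, a membrane glycoprotein of lipid-laden phagocytes, had 3919, 4636, 4249, and 4356 counts in WT samples and 3974, 4280, 3760, and 3791 in *Hint1*-/- samples (log2 fold change −0.11, edgeR adjusted p = 0.123). Its genotypes overlapped.

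*Lyz1*, lysozyme P, fell by 0.42 (SE 0.047, edgeR adjusted p = 2.48e-06), from between 1915 and 2161 counts in WT samples to between 1397 and 1602. *Lyz1* and *Lyz2* lie side by side on the minus strand of chromosome 10 of GRCm38 (mm10), at chr10:117287797-117292868 and chr10:117277331-117282321. Their coding sequences are both 444 bases long and differ at 22 bases. The opening 150 bases of each coding sequence, from the GENCODE M21 annotation of GRCm38, show how few letters tell them apart. Capitals mark the 14 bases of this stretch that differ.
Lyz2: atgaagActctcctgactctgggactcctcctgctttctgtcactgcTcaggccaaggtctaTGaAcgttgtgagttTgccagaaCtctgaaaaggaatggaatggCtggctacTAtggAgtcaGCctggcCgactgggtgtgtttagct
Lyz1: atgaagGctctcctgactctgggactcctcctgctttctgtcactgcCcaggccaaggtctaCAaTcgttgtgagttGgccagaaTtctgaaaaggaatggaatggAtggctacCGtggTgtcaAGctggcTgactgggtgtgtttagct
Of all 50-base stretches in the exons of *Lyz2*, 15.4% also occur in other genes, most often in *Lyz1*. The estimated counts of the pair added up to a whole number in 8 of 8 samples, although each was whole in only 1, so reads had been divided between them. The fall of *Lyz1* is thus uncertain, since part of its counts may be *Lyz2* reads, and per kilobase *Lyz1* stood at 76.3 CPM in WT samples beside 914 for *Lyz2*.

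Fc receptors, their signalling adaptors, and *Trem2* numbered 7. All were tested, 5 fell, and their median log2 fold change of −0.42 was the lowest among the 6 role groups. *Trem2*, a lipid-sensing receptor of macrophages, had 1047, 1218, 1084, and 1097 counts in WT samples and 790, 805, 791, and 751 in *Hint1*-/- samples. It fell by 0.49 (SE 0.046, edgeR adjusted p = 2.86e-07), the largest fall among the 46 genes, and its *Hint1*-/- samples lay close together well below WT. *Tyrobp*, the ITAM adaptor DAP12 through which *Trem2* signals, had 1463, 1594, 1557, and 1671 counts against 1158, 1245, 1198, and 1062, and fell by 0.42 (SE 0.048, edgeR adjusted p = 3.48e-06). *Fcer1g*, the γ chain shared by activating Fc receptors, had 3116, 3205, 3037, and 3302 counts against 2257, 2556, 2389, and 2051, and fell by 0.44 (SE 0.051, edgeR adjusted p = 3.46e-06). Both adaptors separated the genotypes in every sample. *Fcgr1*, the high-affinity IgG receptor, fell by 0.43 and *Fcgr3*, an activating low-affinity receptor, by 0.39.

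*Fcgr2b*, the inhibitory IgG receptor, had 565, 687, 620, and 663 counts in WT samples and 539, 657, 592, and 538 in *Hint1*-/- samples (log2 fold change −0.11, edgeR adjusted p = 0.263). Its genotypes overlapped widely. Of the 50-base stretches of *Fcgr3*, 9.58% also occur in other genes, most often in *Fcgr2b*. *Fcgr3* and *Fcgr2b* both lie on chromosome 1. The estimated counts of each were whole in 0 of 8 samples. Reads of this pair could thus be divided as well, and the fall of *Fcgr3* is uncertain. *Fcgr4*, another activating receptor, had only 169 counts over the WT samples and 148 over the *Hint1*-/- samples (edgeR adjusted p = 0.549).

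Scavenger, pattern recognition, and phagocytic receptors were the most varied group. Of 11 genes, 8 were tested, 2 fell, 1 rose, and 5 were not past the threshold, with a median of −0.14 on the log2 scale. *Cd14*, the co-receptor for bacterial lipopolysaccharide, had 7823, 8438, 8352, and 9065 counts in WT samples and 6636, 7103, 7517, and 6824 in *Hint1*-/- samples, without overlap. It fell by 0.25 (SE 0.044, edgeR adjusted p = 0.000365). *Msr1*, the class A scavenger receptor that takes up modified lipoproteins, fell by 0.34, from between 3058 and 3675 counts to between 2482 and 2747. *Siglec1*, a sialic acid receptor of macrophages, *Mertk*, a receptor for apoptotic cells, and *Cd36*, a receptor for oxidized lipoproteins, had log2 fold changes of −0.14, −0.16, and −0.13 and overlapping genotypes.

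*Clec7a*, at chr6:129461591-129472779, encodes dectin-1, a receptor for fungal β-glucan. It had 7, 15, 13, and 12 counts in WT samples and 17, 19, 26, and 22 in *Hint1*-/- samples. The genotypes did not overlap, but the gap between them was 2 counts. The log2 fold change was 0.84 (SE 0.264, edgeR adjusted p = 0.0284), and the adjusted p ranged from 0.0247 to 0.110 over 14 alternative settings, with 8 of them past both thresholds. Of its samples, 3 WT and 4 *Hint1*-/- samples were over the count limit of the filter, which 4 samples had to exceed. The adjusted p was 0.110 with DESeq2, 0.0971 without WT replicate 1, 0.0508 without WT replicate 3, 0.0524 without WT replicate 4, 0.0918 without *Hint1*-/- replicate 3, and 0.0691 without *Hint1*-/- replicate 4. *Mrc1*, the mannose receptor, had 17, 24, 18, and 25 counts against 36, 37, 21, and 31 (log2 fold change 0.58, edgeR adjusted p = 0.0740), and *Marco*, another scavenger receptor, had 31 counts over the WT samples against 55 (0.83, edgeR adjusted p = 0.102). *Mrc1* alone of these passed both thresholds without *Hint1*-/- replicate 3 (0.73, edgeR adjusted p = 0.0241). *Marco* was over the count limit of the filter in 1 WT and 3 *Hint1*-/- samples, so that it was tested mainly through the *Hint1*-/- samples. *Cd163*, *Folr2*, and *Lyve1*, which mark resident macrophages, did not pass the filter. Over the 4 WT libraries and the 4 *Hint1*-/- libraries, *Folr2* had 28 and 31 counts, *Cd163* 10.6 and 17.6, and *Lyve1* 5 and 9. *Lyve1* had no count in 2 WT libraries, each of which allows up to 3 counts.

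The phagocyte NADPH oxidase moves electrons across the phagosome membrane through *Cybb* and *Cyba*, and its cytosolic subunits *Ncf1* and *Ncf4* join on activation. The cytosolic subunits fell and the membrane subunits were not past the threshold, and the median of the 4 was −0.20. *Ncf1* had 1768, 1771, 1895, and 2023 counts in WT samples and 1359, 1490, 1527, and 1473 in *Hint1*-/- samples, and fell by 0.34 (SE 0.046, edgeR adjusted p = 2.72e-05). *Ncf4* fell by 0.32, from between 469 and 542 counts to between 395 and 424. Neither overlapped between genotypes. Of the 50-base stretches of *Ncf1*, 7.45% also occur in other genes, most often in *Gtf2ird2*, which overlaps it on the other strand. The estimated counts of *Ncf1* were whole in 0 of 8 samples, so they are uncertain. *Cybb* had 2590, 3200, 2480, and 2356 counts in WT samples and 2355, 2695, 2508, and 2439 in *Hint1*-/- samples (log2 fold change −0.08, edgeR adjusted p = 0.474). WT replicate 2 stood above the rest, and without it the log2 fold change of *Cybb* was 0.02. *Cyba* had between 3108 and 3243 counts in WT samples and between 2821 and 3108 in *Hint1*-/- samples (−0.08, edgeR adjusted p = 0.123), and is also expressed outside leukocytes.

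Among 5 leukocyte integrins, the common β2 chain *Itgb2* and the αL chain *Itgal* fell, and *Itgam*, *Itgax*, and *Itgb7* were not past the threshold, with a median of −0.04 for the 5. *Itgam*, which encodes the αM chain of Mac-1 (CD11b) and lies at chr7:128062640-128118491, had 3870, 4105, 3862, and 4078 counts in WT samples and 3568, 4009, 3902, and 3893 in *Hint1*-/- samples. The difference of −0.04 on the log2 scale was small (SE 0.038, edgeR adjusted p = 0.523), and the samples of both genotypes were mixed. *Itgb2*, which pairs with αM, had 1291, 1481, 1296, and 1482 counts against 1055, 1204, 1128, and 1125, and fell by 0.29 (SE 0.051, edgeR adjusted p = 0.000428). *Itgal* fell by 0.25, from between 327 and 343 counts to between 232 and 300 (edgeR adjusted p = 0.0219), and was above 0.05 without WT replicate 4 (0.0514) or *Hint1*-/- replicate 1 (0.0770). *Itgb7*, the β7 chain of lymphocyte homing receptors, had 788 counts over the WT samples against 846, and *Itgax*, CD11c, had 105 against 101. *Itgax* shares 8.02% of its 50-base stretches with other genes, most often with *Itgad*, so its few counts are uncertain.

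Ratios of counts between partner proteins were formed within each sample, so that library size cannot move them. The 9 pairs were chosen after the values of the genes had been seen, and their ratios are described with no test. The ratio of *Itgam* to *Itgb2* was 3.00, 2.77, 2.98, and 2.75 in WT samples and 3.38, 3.33, 3.46, and 3.46 in *Hint1*-/- samples. It was higher in 4 of 4 *Hint1*-/- samples, by 0.25 on the log2 scale. The ratio of *Ncf1* to *Cyba* was lower in 4 of 4 *Hint1*-/- samples, with a log2 difference of −0.26, though the counts of *Ncf1* are uncertain. Both differences restate the fold changes of these genes given above, and gene pairs beyond the 9 were not examined. In the other 7 pairs the genotypes overlapped. The ratio of *Trem2* to *Tyrobp* differed by −0.07 and that of *Fcgr1* to *Fcer1g* by 0.02, and in both pairs receptor and adaptor each fell.

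**Figure D5:**
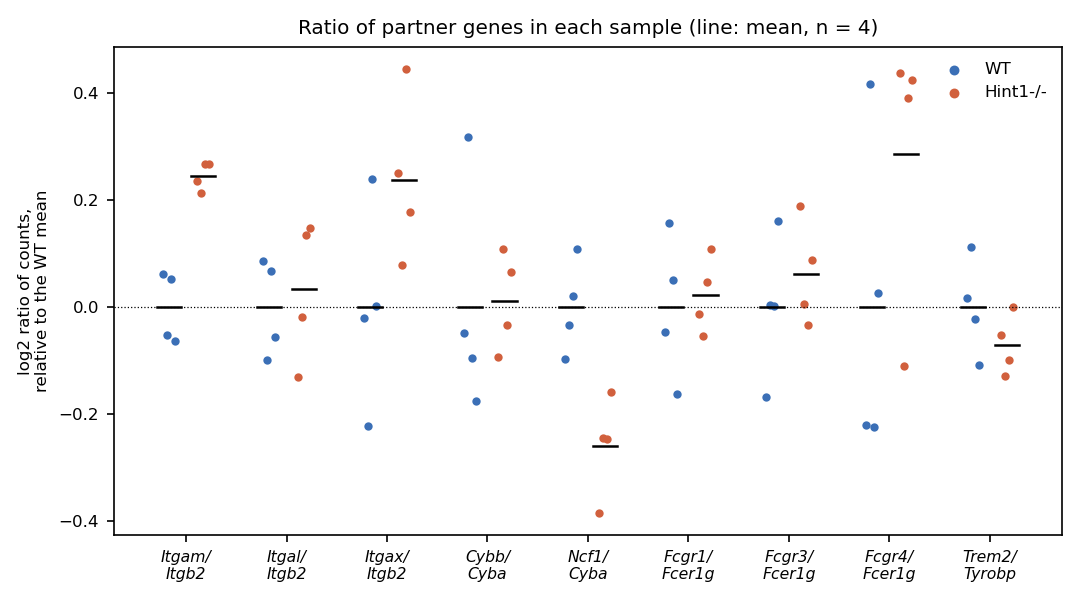
Ratio of counts within 9 pairs of partner genes in each sample, on the log2 scale and relative to the WT mean of the pair (vertical), with a line at the mean of 4 samples. Only the *Itgam* to *Itgb2* and the *Ncf1* to *Cyba* ratios separate all *Hint1*-/- samples from all WT samples, by 0.25 and −0.26.

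The promoters of the 46 genes, whether they fell or not, were searched for the core of the PU box. This core is GAGGAA on either strand, the sequence that PU.1 recognizes. RefSeq promoters on GRCm38.p6, each 250 bases before to 50 after a gene start, were matched for 35 of the 46 genes (42 promoters). The core was found in 21 of these 42 promoters, and in 28.3% of all 32851 promoters. Counted by gene, it was found in 9 of the 16 matched genes that fell and in 10 of the 19 that did not fall or were not tested. The longer form GAGGAAGT, which contains the core, was in 7.14% of these promoters and 3.20% of all. The genes with it were *Cd53*, which fell, and *Fcgr4* and *Itgb7*, which were not past the threshold. Windows around a core are shown for *Trem2* and *Ptprc*, which fell, for *Itgam*, which did not pass the threshold, and for *Clec7a*, which rose. Each reads in the direction of its gene, with the core or its reverse complement TTCCTC in capitals.
Trem2, chr17:48346335-48346392, plus strand: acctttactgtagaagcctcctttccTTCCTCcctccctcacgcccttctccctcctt
Ptprc, chr1:138175432-138175489, minus strand: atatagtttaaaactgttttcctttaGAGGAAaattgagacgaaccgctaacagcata
Itgam, chr7:128062530-128062587, plus strand: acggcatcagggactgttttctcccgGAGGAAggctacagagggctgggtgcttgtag
Clec7a, chr6:129472844-129472901, minus strand: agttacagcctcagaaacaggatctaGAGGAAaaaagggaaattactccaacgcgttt
The core shown begins 40 bases before the gene start in *Trem2*, 158 in *Ptprc*, 84 in *Itgam*, and 90 or 96 in *Clec7a*, which has alternative starts. *Itgam* holds further matches outside the window shown, 1 of them 15 bases before its start. A match describes the letters only.

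The order of the replicates within a genotype was counted gene by gene. Among the 34 genes that averaged 100 counts or more, 20 were highest in WT replicate 4 and 12 in WT replicate 2, while 22 were lowest in WT replicate 1, 5 in WT replicate 2, 4 in WT replicate 3, and 3 in WT replicate 4. In *Hint1*-/- samples 22 were highest in replicate 2 and 8 in replicate 3, and 20 were lowest in replicate 1 and 11 in replicate 4. The order differed between genes, and the same count over all genes was not made. In the summed level the difference between genotypes exceeded the spread of the replicates. Leaving out any 1 sample kept the summed share between 80.8% and 83.7% of WT.

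Further myeloid genes outside the 46 were also mostly lower. Of 50 such genes, 49 were analysed and 44 tested, of which 27 fell and 3 rose. Their log2 fold changes had a median of −0.22. *Lilrb4a*, an inhibitory receptor with the most counts in this list, fell by 0.29, from between 10018 and 11334 counts in WT samples to between 8359 and 9236. Past both thresholds were *Nos2* and *C1qc*, and both rose. *Nos2*, the inducible nitric oxide synthase, had 1037, 1094, 871, and 675 counts in WT samples and 2776, 3451, 2692, and 3282 in *Hint1*-/- samples (log2 fold change 1.74, SE 0.103, edgeR adjusted p = 4.68e-10). All *Hint1*-/- samples were well above WT, and smooth muscle cells are also known to express this gene after cytokine exposure. *C1qc*, a complement chain made by macrophages, had 26 counts over the WT samples and 57 over the *Hint1*-/- samples (1.13, edgeR adjusted p = 0.0180), and its adjusted p was above 0.05 in 4 of 14 alternative settings. It passed the filter only through the *Hint1*-/- samples, of which 4 were over the count limit beside 0 WT samples, so that it was tested because it was high there. Among further genes singled out after their values were seen, *Ctss*, a lysosomal protease of antigen-presenting cells, fell by 0.41, *Cx3cr1*, the fractalkine receptor, fell by 0.22, and *Tlr4*, which detects lipopolysaccharide with CD14, had a log2 fold change of 0.00 (edgeR adjusted p = 0.984).

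Genes near to the 46 in function were also compared. *Rac1*, a GTPase of all cells that takes part in the NADPH oxidase, had a log2 fold change of −0.01 (edgeR adjusted p = 0.916). Of 6 tested genes of leukocyte adhesion outside the 46, 2 fell, namely *Itga4* by 0.28 and the integrin activator of blood cells *Fermt3* by 0.37, and *Vcam1*, with the most counts in the list, had −0.04 (edgeR adjusted p = 0.389). The median log2 fold change of these adhesion genes was −0.18.

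Macrophage growth factors and their receptors did not move one way. Of 9 tested, 3 fell and 2 rose (median −0.00438 on the log2 scale). Those that fell were *Il34* and the receptor chains *Csf2ra* (−0.16) and *Csf2rb* (−0.23), and those that rose were the ligands *Csf3* and *Kitl* (0.52). *Csf1*, the main ligand of the *Csf1r* receptor, was rank 40 of all genes per kilobase in WT samples and had between 74994 and 78785 counts in WT and between 76267 and 82136 in *Hint1*-/- samples (log2 fold change 0.05, edgeR adjusted p = 0.359). *Il34*, the other ligand, had 193, 211, 208, and 182 counts against 113, 126, 131, and 141. It fell by 0.62 without overlap (SE 0.087, edgeR adjusted p = 3.32e-05), and by 0.57, within the fold limit, without *Hint1*-/- replicate 1. *Csf3*, the granulocyte factor, rose by 0.91 (edgeR adjusted p = 1.57e-06), from between 161 and 228 counts to between 318 and 419. Of 21 genes of cholesterol handling and lysosomes, all tested, 8 fell and 2 rose, with a median of −0.06. *Spp1*, osteopontin, the most abundant gene per kilobase in WT samples, fell by 0.28, and *Abcg1*, which exports cholesterol, was past both thresholds with a fall of 0.88 (SE 0.064, edgeR adjusted p = 9.25e-09).

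Genes of other cells were measured beside the myeloid genes, and their part in the result was not tested. Of 10 smooth muscle genes, 9 were tested, 6 fell, and 1 rose (median −0.35 on the log2 scale). Their summed level was 1498, 1382.5, 1496, and 1497 CPM in WT samples and 1211, 1234, 1186, and 1144 CPM in *Hint1*-/- samples, which is 81.3% of WT. *Myh11* (−1.54), *Cnn1* (−1.12), and *Des* (−0.61), all of the contractile state, were past both thresholds. *Des* was within the fold limit without WT replicate 2 or *Hint1*-/- replicate 2, the smaller fall being −0.54. *Acta2*, at 52.8% of the list's counts, fell by 0.51. None of the 10 was at 0. The summed level of these contractile genes was thus lower, as was that of the myeloid genes. Of 10 fibroblast genes, 3 fell and 4 rose, with a median of 0.04, and their summed level was 8731, 8460.4, 8501, and 8119 CPM in WT and 9582, 9519.6, 9064, and 9741 CPM in *Hint1*-/- samples, which is 112% of WT. *Dcn* (0.83) and *Lum* (0.88), proteoglycans of connective tissue, and *Dpt* (−0.79) were past both thresholds, and *Col1a1* had the most counts.

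Markers of other leukocytes and of endothelium were near 0. The 10 endothelial genes summed to 9.71 ± 1.17 CPM for WT and 9.11 ± 0.965 CPM for *Hint1*-/- (SD, n = 4 each), with the most counts in *Cdh5* (log2 fold change −0.48, edgeR adjusted p = 0.105). *Cdh5* was past both thresholds without WT replicate 2 (−0.63, edgeR adjusted p = 0.0254). For 7 dendritic cell genes the sums were 6.63 ± 0.805 and 6.29 ± 0.688 CPM, with the most counts in *Zbtb46*. For 9 lymphocyte genes they were 4.98 ± 0.385 and 3.94 ± 0.277 CPM, of which the kinase *Lck* made up 78.8% and fell by 0.40 (edgeR adjusted p = 0.0202), a call lost with DESeq2 and without WT replicate 4. Neutrophil and mast cell genes summed to 6.68 ± 0.581 and 5.99 ± 0.556 CPM. *Csf3r* had the most counts of them, and *S100a8*, a calcium-binding protein of neutrophils, was past both thresholds at 30 counts over the WT samples and 60 over the *Hint1*-/- samples (1.00, edgeR adjusted p = 0.0486), a call lost in 9 of 14 alternative settings. It too passed the filter through the *Hint1*-/- samples, of which 4 were over the count limit beside 1 WT sample. Each of these sums is under 10 CPM, beside 5522 CPM for the 46 myeloid genes in WT samples.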

How the data were processed

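RNA-Seq of 4 WT and 4 *Hint1*-/- MASMC samples was analysed, grouped by genotype as labelled. The authors enriched poly(A) RNA, sequenced 50-base reads, and deposited estimated counts per gene symbol without normalization. The submitters' processing notes name Bowtie2, RSEM 1.3.1, DESeq2 1.4.5, and mm10, whereas the study's methods name HISAT2, and the annotation is not given in the sources used here. Between 67.3% and 67.8% of values were whole within 0.005, and all were rounded. Samples of 1 genotype differed beyond counting noise, so none was counted as a repeat of another.

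R 4.3.3 with edgeR 4.0.16 was used (filterByExpr, TMM factors of 0.993 to 1.01, glmQLFit and glmQLFTest, genotype as the only term). Thresholds were an adjusted p under 0.05 and a fold change over 1.5, as in the study. Alternatives were RLE and upper-quartile scaling, no filter, at least 10 counts in every sample, DESeq2 1.42.0, voom in limma 3.58.1, the replicate number as a block, no fold limit, and each sample left out. The pipeline was tested on simulated data. Exon lengths, positions, and shared 50-base stretches came from GENCODE M21 on GRCm38, promoters from RefSeq on GRCm38.p6.

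The genes, role groups, and lists were chosen with earlier results of these data known, and the partner pairs after the files were seen, by known protein partnership. Full values are given for genes past both thresholds, for the defining markers, and for genes that fell among the 10 with the most counts. Other lists are given mainly by their genes past both thresholds and the gene with the most counts. No molecular identifiers are described, so depth limits cover counting error only. Some results of the gene lists are not reported here.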

Additional observations from a re-analysis of the deposited data

Results flagged for a closer look

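In 140 groups of 4 samples examined (each tested gene given with a value of its own, in each genotype), 3 samples stood apart from the rest of their group, by Dixon's gap ratio of log2 CPM at the 95% level, where chance alone gives 1 in 20 groups, or 7.0. *Fgr* in *Hint1*-/- replicate 4 had 96 counts against 89, 89, and 90 in the other replicates, a gap of 0.892 of the group's range. *Itgax* in *Hint1*-/- replicate 3 had 29 counts against about 24 in each of the other replicates, a gap of 0.982. Both gaps span few counts. *Acta2* in WT replicate 2 had 15956 counts against 17467, 17855, and 17809 in the other replicates, a gap of 0.837.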

How the results depend on the processing

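Of the 41 tested myeloid genes, none changed its side of the threshold under RLE or upper-quartile scaling, without a filter, or with voom, and the count of genes past the adjusted p was 24 with DESeq2 and 25 with at least 10 counts in every sample, beside 26. Without a limit on the fold change, 2907 genes and 26 myeloid genes were past the threshold. *Clec7a*, the single myeloid gene past both thresholds, left 0 with DESeq2 and 0 with at least 10 counts in every sample, where it could not be tested. Leaving out each sample gave 350 to 390 genes, 0 to 1 myeloid genes past both thresholds, and 23 to 27 past the adjusted p alone. The 1 gene without *Hint1*-/- replicate 3 was *Mrc1*, since *Clec7a* was lost there. Of the genes that fell, *Cd53* was lost without *Hint1*-/- replicate 1, *Itgal* without WT replicate 4 or *Hint1*-/- replicate 1, and *Cd84* with DESeq2 and in 5 of the 8 omissions. Besides *Mrc1*, the omissions added *Fgr* without WT replicate 1 (edgeR adjusted p = 0.0409). They also added *Gpnmb* without WT replicate 1 (edgeR adjusted p = 0.0341) or *Hint1*-/- replicate 2 (edgeR adjusted p = 0.0380), both as falls. The cause was not tested.

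Of the 15 tested myeloid genes not past the threshold, 3 turned sign when single samples were left out, as did 2 other genes. *Cd36* ranged from −0.32 to 0.0172, *Cybb* from −0.13 to 0.0231, and *Itgax* from −0.12 to 0.00586 on the log2 scale, the positive values being without WT replicate 2, WT replicate 2, and WT replicate 3. *Tlr4* was −0.00882 with upper-quartile scaling and −0.00112 with at least 10 counts in every sample, and ranged from −0.0239 to 0.0420 with single samples left out, and *Rac1* from −0.0197 to 0.0161. Samples with the same replicate number shared only the number, since the correlations of their deviations were −0.05, 0.08, 0.01, and 0.02. With the replicate number as a block, 382 genes and 1 myeloid gene were past both thresholds and 28 myeloid genes were past the adjusted p, *Mpeg1* and *Gpnmb* having been added. Not every sample correlated best with its own number. The tested myeloid genes with under 100 counts had log2 fold changes with standard errors of 0.155 or more, and whether depth limited them was not tested.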
